A study of Mus musculus with 6 samples.

Results

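The genes examined here were Myc, its partner Max, its relative Mycn, and 46 genes that make ribosomes in the nucleolus or are textbook targets of Myc. The 49 symbols were listed by name for their known roles, at a time when earlier results of these data had been seen. Every symbol matched a GENCODE M21 gene, and the tables held 53458 genes in all. RNA sequencing had been run on marrow blasts sorted from leukemic mice, giving 6 libraries. Of these, 3 were labelled Cebpa-/p30; Asxl1WT (WT) and 3 Cebpa-/p30; Asxl1G643W/G643W (G643W). All 6 carried the Cebpa genotype, so full-length C/EBPα was missing and the short p30 form remained, and both groups were C57/BL6. The series describes the mice as transplanted, and the sort gate was CD45.2+, Ter119-, B220- and CD3- with Mac1 and Gr1 low. The labels give no ages and do not say whether the libraries of a genotype come from different mice or leukemias, and the p-values rest on differences among these libraries alone, which may be technical in part. Asxl1 encodes a chromatin regulator, and the comparison asks how its G643W change alters expression in Cebpa-mutant blasts.

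Ribosome production starts in the nucleolus, where RNA polymerase I copies the rDNA into a long precursor. Small nucleolar ribonucleoproteins then guide its methylation and pseudouridylation, and large processing complexes cut it and fold the small and the large subunit. Myc, a transcription factor that binds E-box DNA as a dimer with Max, is known to drive many of these genes, which is why their RNA is often read as a sign of growth. In the marrow, Myc and nucleolar genes are high in dividing progenitors and are turned down as granulocytes mature.

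Library totals lay between 61167075 and 101189225 estimated reads. Ptprc, which encodes CD45, was present at 49.3 to 160.1 TPM (Salmon's share of transcripts in a library, which accounts for transcript length), and Cd3e, which encodes a CD3 chain, was at most 0.219 TPM. Ly6g, which encodes part of the Gr1 antigen, and Ltf, a neutrophil granule gene, reached 697 and 40602 TPM in G643W library 2. Asxl1 was at 3.68 to 7.15 TPM in WT and 13.7 to 20.2 TPM in G643W libraries, and a gene total does not check a base change.

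No member passed the genotype test, and the members spread more widely among the G643W libraries than among the WT libraries. Of the 49 genes, 48 had enough reads to be tested and 0 passed edgeR's quasi-likelihood test (lowest adjusted p = 0.527, for Ebna1bp2), against 0.121% of the 20654 genes tested. At an unadjusted p under 0.05 there were also 0 of 48, against 9.66% of all genes tested, and DESeq2 called 0 members, against 1.27% of genes lower and 0.794% higher. The log2 changes of G643W against WT were negative for 46 of 48 members, against 50.8% of all genes tested. Their median was -0.59, where all genes tested had a median of -0.01. They ran from -1.19 for Rrp9 to 0.31 for Polr1a. In 5 members (Fbl, Bysl, Nob1, Ebna1bp2 and Tcof1) the G643W libraries were all below the lowest WT library by CPM (read counts per library size, scaled by TMM), against 8.89% of all genes tested. In 0 members the G643W libraries all lay above, against 7.05%. The 5 rest on small margins and on the scaling of the libraries. With no TMM factor 0 of 48 were without overlap. By TPM, which carries no TMM factor either, 0 of 48 were too, against 5.84% of all genes tested lower and 9.61% higher. With scaling kept, the count was 4 with length-scaled counts, 6 with DESeq2, and 5 with no filter or protein-coding genes alone.

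**Figure D1:**
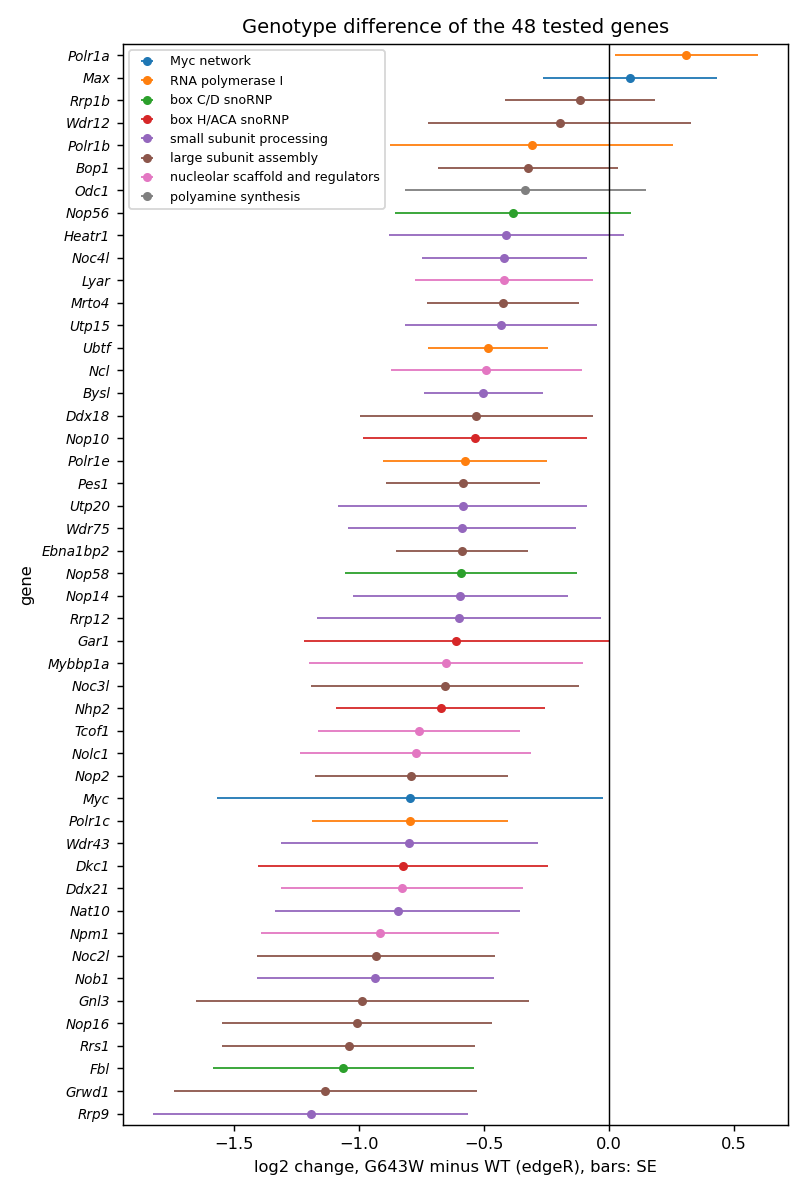
Log2 change of G643W against WT for the 48 tested genes (x axis, edgeR, points with SE bars from 3 libraries per genotype), sorted, with one gene per line on the y axis and colours for the roles. All points but Polr1a and Max lie left of 0, between -1.19 and -0.12.

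The 3 G643W libraries were unlike each other. G643W library 2 was the lowest of all 6 libraries for 45 of 48 members, against 24.9% of all genes tested, and G643W library 3 was the second lowest for 43 of 48, against 23.3%. G643W library 1 lay within the WT range for 32 members, above it for 10 and below it for 6, where all genes tested had 52.5%, 23.6% and 23.9%. As a share of the WT mean, the median member stood at 102% in G643W library 1, 58.7% in library 3 and 29.8% in library 2. The coefficient of variation over 3 libraries had a median of 20.7% in WT and 61.9% in G643W, where all genes tested had 32.2% and 30.9%. It was larger in G643W for 46 of 48 members, against 46.2% of all genes tested. These members share libraries and move together, so the counts are not independent of each other. In bulk libraries such as these, fewer cells of a type and less RNA per cell cannot be told apart.

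**Figure D2:**
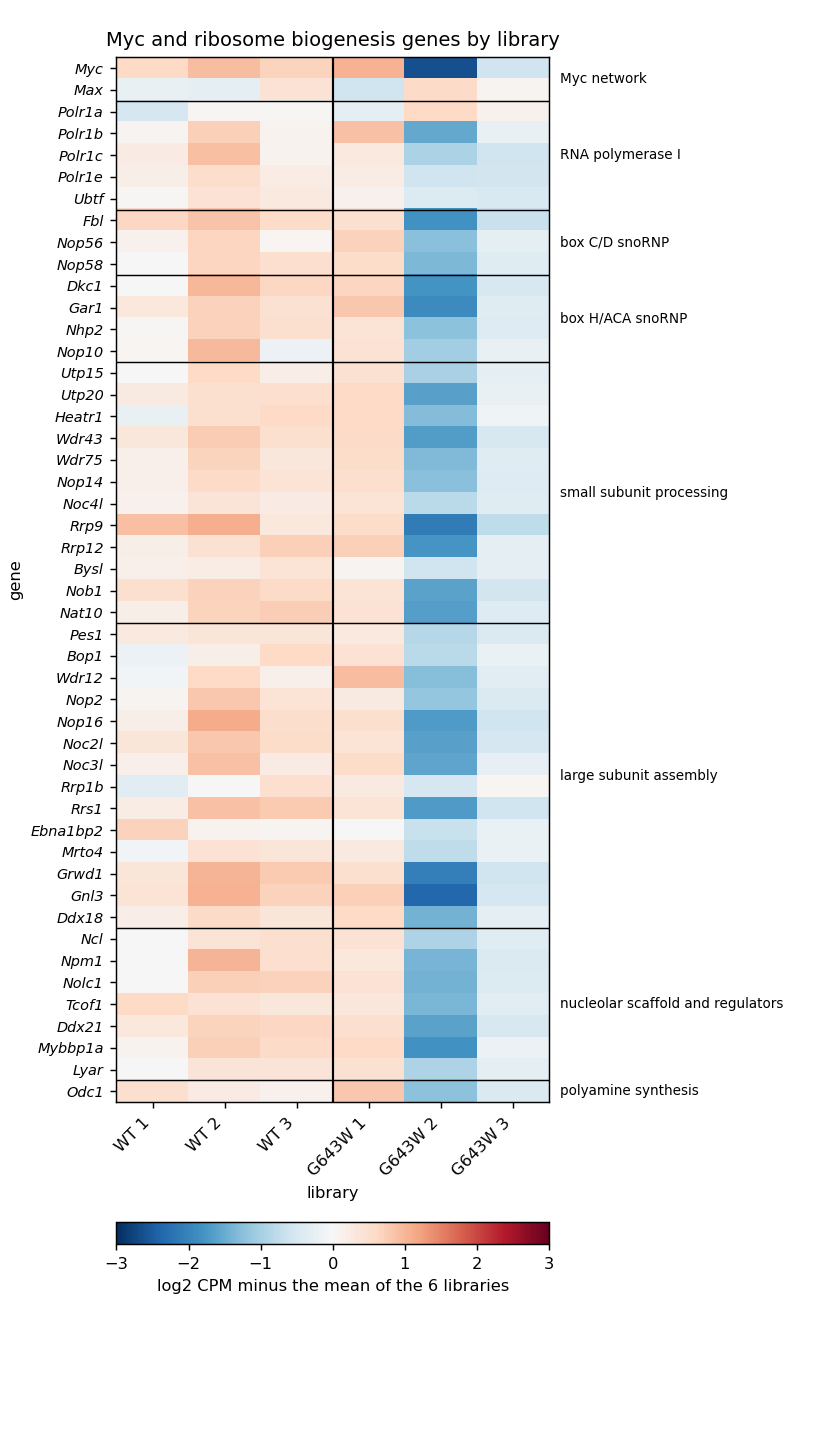
Heat map of the 48 tested genes (rows, grouped by role) in the 6 libraries (columns); colour gives log2 CPM minus the gene's mean over the 6 libraries. The column of G643W library 2 is blue in all rows but Max and Polr1a, that of G643W library 3 is mostly pale blue, and G643W library 1 resembles the WT columns.

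Leaving out one library at a time moved the size of the median by more than 1.5 times for the G643W libraries 1 and 2. Without G643W library 2 the median log2 change of the 48 members was -0.28, with 43 negative, and without G643W library 1 it was -1.10, with 46 negative. Without G643W library 3 it was -0.52, and without WT library 1, 2 or 3 it was -0.70, -0.50 or -0.58. In none of these 6 fits did a member pass the edgeR threshold. Without G643W library 1, 43 of 48 members lay lower in G643W without overlap and 1 higher, against 20.3% and 23.2% of the genes tested in that fit. Without WT library 1, 18 of 48 lay lower and 0 higher, against 14% and 14.4%. Fewer libraries have to be separated in these fits than in the full one.

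**Figure D3:**
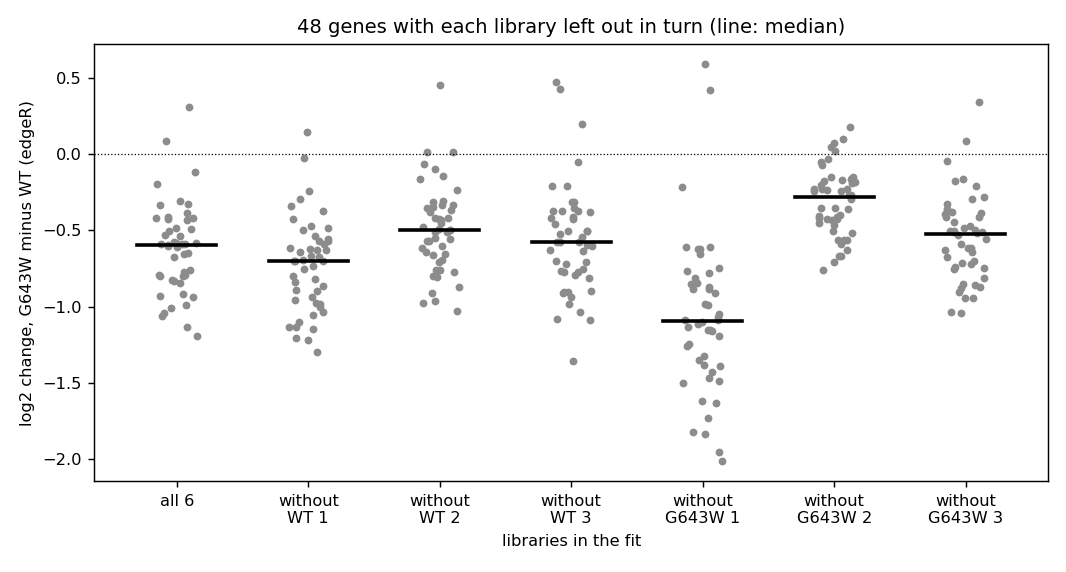
Log2 change of G643W against WT (y axis, edgeR) of the 48 tested genes, one grey point per gene, with all 6 libraries and with each library left out in turn (x axis); black lines are medians. The median lies at -0.59 with all libraries, at -1.10 without G643W library 1 and at -0.28 without G643W library 2.

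Myc itself had the widest spread among G643W libraries of the 48, with a coefficient of variation of 103%. Myc (ENSMUSG00000022346; GRCm38 chromosome 15, 61985391 to 61990374, plus strand) stood at 117, 148 and 122 CPM across WT libraries 1, 2 and 3 against 160.1, 12.3 and 51 CPM across G643W libraries 1, 2 and 3. The 3 WT libraries were close to each other, G643W library 1 lay above all of them and G643W libraries 2 and 3 lay below, so the genotypes overlapped. The means were 129 ± 16.4 and 74.5 ± 76.7 CPM (SD, n = 3 each), and the difference did not pass (log2 change -0.79 ± 0.77, SE, edgeR adjusted p = 0.695). Without G643W library 2 the log2 change of Myc was -0.29, and without G643W library 1 it was -1.96. G643W library 2 held 9.5% of the WT mean, the lowest share of any tested member in any G643W library. The same order appeared in TPM, at 28, 32.1 and 30.3 TPM in the WT group against 46.5, 3.33 and 13.6 TPM in the G643W group.

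Max, the obligate partner of Myc that also dimerises with the antagonists of the Mxd family, followed another order. Max (ENSMUSG00000059436; GRCm38 chromosome 12, 76937269 to 76962201, minus strand) had 98.1, 94.6 and 154 CPM in the WT group against 75.9, 170.1 and 121 CPM in the G643W group (log2 change 0.09 ± 0.35, SE, edgeR adjusted p = 0.937), so its highest library was the one where Myc was lowest. Without G643W library 2 the log2 change of Max turned to -0.23. By TPM, Max exceeded Myc 4.08-, 3.00- and 6.24-fold across WT libraries 1, 2 and 3 and 1.65-, 63.1- and 12.9-fold across G643W libraries 1, 2 and 3. Mycn, which can replace Myc in early progenitors, was close to silent and was not tested. It had 2 estimated reads in WT library 1, 2 in G643W library 1 and 0 in the other 4 libraries. In a library with 0 reads, an expected count of up to 3 reads remains possible.

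Of Myc's transcripts, 4 took at least 10% of its reads each. The one with the most reads, ENSMUST00000022971 (2338 bases), had 3045, 4232 and 3607 estimated reads across WT libraries 1, 2 and 3 against 2990, 175 and 1393 across G643W libraries 1, 2 and 3. ENSMUST00000167731 (1821 bases) had 1176, 817, 1518 estimated reads across WT libraries 1, 2 and 3 and 1810 in G643W library 1, and was listed at 0 in G643W libraries 2 and 3. These transcripts overlap nearly throughout, so how Salmon divided reads among them is an estimate.

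**Figure D4:**
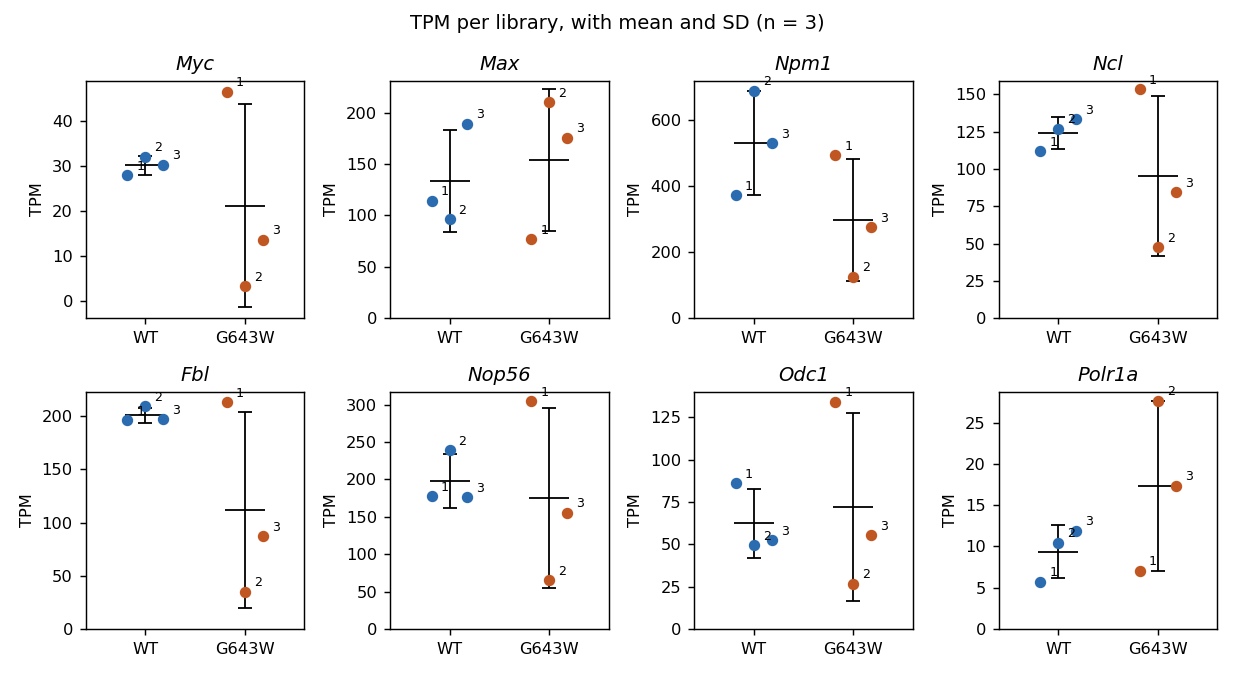
TPM (y axes, linear) of 8 members in WT (blue) and G643W (orange) libraries, each point numbered by its library; the bars are mean and SD of 3 libraries. For Myc, Npm1, Ncl, Fbl, Nop56 and Odc1 the lowest point is G643W library 2, while for Max and Polr1a that library is the highest.

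E-box letters were read in the members' promoters because Myc and Max are known to bind them. Windows of 250 bases before to 50 after a gene's start were taken from RefSeq (GRCm38.p6) and matched 42 of the 49 members by symbol. The letters CACGTG, which read the same on both strands, were in a window of 7 of these 42 (16.7%), against 8.09% of the 27025 genes with a window. The related letters CACGCG, on either strand, were in 15 of 42 (35.7%), against 10.5% of all genes, and a window can hold both elements. Both shares are descriptions of windows of 300 bases and say nothing of binding. The comparison took all genes with a window, whether or not they were expressed here, and base composition was not matched. Some members were also listed as textbook targets of Myc. The 7 stretches of 30 bases around CACGTG, in capitals and read along the gene's strand, are shown so that the flanks of the element can be compared.
Nop2: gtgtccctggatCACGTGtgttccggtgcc
Max: ggtgagcccggtCACGTGttagggggccga
Pes1: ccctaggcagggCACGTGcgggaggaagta
Wdr43: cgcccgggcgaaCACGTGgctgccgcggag
Grwd1: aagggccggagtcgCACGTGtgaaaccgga
Utp20: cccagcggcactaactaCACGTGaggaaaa
Mybbp1a: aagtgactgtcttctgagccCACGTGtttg

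On GRCm38.p6 these lie at chr6:125131811-125131840 for Nop2, chr12:76962234-76962263 for Max, chr11:3963965-3963994 for Pes1, chr17:71616220-71616249 for Wdr43, chr7:45830740-45830769 for Grwd1, chr10:88826765-88826794 for Utp20 and chr11:72441347-72441376 for Mybbp1a. Max, Grwd1 and Utp20 are on the minus strand and the other 4 on the plus strand. The element begins 60 bases before the RefSeq start in Nop2 and 3 bases before it in Max, and from 2 to 40 bases after it in the other 5. Max had a positive log2 change and the other 6 had negative ones, from -1.13 for Grwd1 to -0.58 for Pes1, none past the threshold.

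RNA polymerase I genes were split. Polr1c, a subunit shared with RNA polymerase III, had 29.3, 46.2 and 26.3 CPM in the WT group against 29.9, 12.6 and 16.1 CPM in the G643W group (log2 change -0.80 ± 0.39, SE, edgeR adjusted p = 0.537), and G643W library 1 lay above WT libraries 1 and 3. Ubtf, the factor that keeps rDNA open and recruits the polymerase, had 131, 173 and 157 CPM in the WT group against 139, 95.7 and 93.8 CPM in the G643W group (log2 change -0.48 ± 0.24, SE, edgeR adjusted p = 0.538), and it was the 1 member for which G643W library 3 was lowest. Polr1b and Polr1e, the other large catalytic subunit and a subunit of the initiation complex, had log2 changes of -0.31 and -0.58. Polr1a, the largest subunit, had the opposite sign, with 43.2, 63.6 and 62.6 CPM in the WT group against 50.1, 93.1 and 66.8 CPM in the G643W group, with its highest value in G643W library 2. Of the Polr1a reads, 14.7 to 22.9% were assigned to protein-coding transcripts. Over the 6 libraries 50.8% went to ENSMUST00000205517, a transcript annotated for nonsense-mediated decay. It had 1835, 2328 and 2448 estimated reads across WT libraries 1, 2 and 3 against 1562, 4147 and 2492 across G643W libraries 1, 2 and 3. The coding ENSMUST00000055296 had 523, 766 and 694 estimated reads across WT libraries 1, 2 and 3 against 509, 1898 and 814 across G643W libraries 1, 2 and 3. Both were highest in G643W library 2. ENSMUST00000206556, also annotated for nonsense-mediated decay, took 15.2% and was highest in G643W library 1. It had 483, 800 and 854 estimated reads across WT libraries 1, 2 and 3 against 967, 557 and 765 across G643W libraries 1, 2 and 3. The 5 genes had a median log2 change of -0.48.

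Genes of the small nucleolar ribonucleoproteins were low in G643W library 2 without exception. Fbl, the methyltransferase of box C/D particles (ENSMUSG00000046865; GRCm38 chromosome 7, 28169710 to 28179269, plus strand), had 90.6, 107 and 86.7 CPM across WT libraries 1, 2 and 3 against 82.1, 16.7 and 37.4 CPM across G643W libraries 1, 2 and 3. All 3 G643W libraries lay below the lowest WT library, G643W library 1 by a small margin (log2 change -1.06 ± 0.52, SE, edgeR adjusted p = 0.538). By TPM the order changed and G643W library 1, at 213 TPM, was above every WT library. Its scaffold partners Nop58 and Nop56 had 94.6, 145 and 131 CPM in the WT group against 137, 36.3 and 72.5 CPM in the G643W group, and 129.9, 186 and 123 CPM in the WT group against 189.9, 49.6 and 97.5 CPM in the G643W group, respectively. For Nop56 G643W library 1 was the highest of all, for Nop58 it lay below WT library 2 alone, and the log2 changes were -0.59 and -0.38. In the box H/ACA particles, which form pseudouridine and also hold telomerase RNA, the catalytic subunit Dkc1 had 60.7, 120.1 and 92.8 CPM in the WT group against 93.8, 17.4 and 43.5 CPM in the G643W group (log2 change -0.82 ± 0.58, SE, edgeR adjusted p = 0.607). Nhp2, an RNA-binding subunit, had 49, 77.3 and 67 CPM in the WT group against 64.1, 20.3 and 37 CPM in the G643W group (log2 change -0.67 ± 0.42, SE, edgeR adjusted p = 0.579). Gar1 and Nop10, the remaining core subunits, had log2 changes of -0.61 and -0.53, with Gar1 at 18.5% of its WT mean in G643W library 2.

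All 12 members of small subunit processing had negative log2 changes and their lowest value in G643W library 2. Bysl, needed for late steps of the small subunit, had 31, 32.2 and 36.8 CPM in the WT group against 29.4, 18.4 and 22.9 CPM in the G643W group (log2 change -0.50 ± 0.24, SE, edgeR adjusted p = 0.536). Nob1, the nuclease that makes the final cut of 18S rRNA, had 38.2, 43.8 and 40.6 CPM in the WT group against 36.6, 8.85 and 18.7 CPM in the G643W group (log2 change -0.93 ± 0.47, SE, edgeR adjusted p = 0.541). In both, the genotypes did not overlap, and G643W library 1 lay just under the lowest WT library. Rrp9, a protein of the U3 particle, had the most negative log2 change of all members, at 30.6, 34.6 and 20.3 CPM in the WT group against 24.1, 3.73 and 9.62 CPM in the G643W group (log2 change -1.19 ± 0.63, SE, edgeR adjusted p = 0.548), with overlap. The acetyltransferase Nat10 had a log2 change of -0.85. The U3-associated genes Wdr43, Wdr75, Utp15, Utp20, Heatr1, Nop14 and Noc4l had values between -0.80 for Wdr43 and -0.41 for Heatr1, and the export-linked Rrp12 had -0.60. Summed over the 12 genes there were 128, 144 and 147 TPM across WT libraries 1, 2 and 3 against 170.4, 32.9 and 84.2 across G643W libraries 1, 2 and 3, so that G643W library 1 was the highest and G643W library 2 the lowest.

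All 14 members of large subunit assembly likewise had negative log2 changes and were lowest in G643W library 2. Ebna1bp2, an early assembly factor, had 123, 82.4 and 81.8 CPM in the WT group against 76.4, 48.5 and 66.4 CPM in the G643W group (log2 change -0.59 ± 0.27, SE, edgeR adjusted p = 0.527), and its margin between the genotypes was 81.8 against 76.4 CPM. Rrs1, which brings 5S rRNA to the particle, had 44.2, 68.9 and 64.3 CPM in the WT group against 50.1, 11.6 and 24.6 CPM in the G643W group (log2 change -1.04 ± 0.50, SE, edgeR adjusted p = 0.537), with overlap between G643W library 1 and WT library 1. The 3 subunits of the PeBoW complex, Pes1, Bop1 and Wdr12, had log2 changes of -0.58, -0.33 and -0.20, and that of Wdr12 was 0.18 without G643W library 2. Gnl3, the GTPase nucleostemin of stem and tumour cells, had 64, 99.2 and 77.7 CPM in the WT group against 78.5, 9.34 and 33.8 CPM in the G643W group, with 11.6% of the WT mean in G643W library 2. The methyltransferase Nop2 had a log2 change of -0.79, and the helicase Ddx18 of -0.53. Nop16, Noc2l, Noc3l, Grwd1, Mrto4 and Rrp1b ranged from -1.13 for Grwd1 to -0.12 for Rrp1b. The change of Rrp1b was 0.07 without G643W library 2.

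By TPM, Npm1 was the most abundant member, at 531 ± 158 TPM in WT and 298 ± 185 TPM in G643W (SD, n = 3 each). Npm1 (ENSMUSG00000057113; GRCm38 chromosome 11, 33152287 to 33163206, minus strand), the chaperone nucleophosmin that is mutated in many human acute myeloid leukemias, had 558, 1121 and 786 CPM across WT libraries 1, 2 and 3 against 689.8, 211 and 408 CPM across G643W libraries 1, 2 and 3. G643W libraries 2 and 3 lay below every WT library while G643W library 1 lay within the WT range (log2 change -0.91 ± 0.48, SE, edgeR adjusted p = 0.542). Ncl, nucleolin (ENSMUSG00000026234; GRCm38 chromosome 1, 86344719 to 86359400, minus strand), had 589.6, 786 and 820.4 CPM in the WT group against 796, 309.7 and 457 CPM in the G643W group, with G643W library 1 inside the WT range (log2 change -0.49 ± 0.38, SE, edgeR adjusted p = 0.634). Tcof1, treacle, which works with Ubtf in rDNA transcription, had 106, 94.4 and 89.2 CPM in the WT group against 88.7, 26.8 and 55.3 CPM in the G643W group (log2 change -0.76 ± 0.41, SE, edgeR adjusted p = 0.55), and G643W library 1 lay under the lowest WT library by a narrow margin. Nolc1, its relative, the helicase Ddx21, the Myb-binding repressor Mybbp1a and the zinc finger protein Lyar had log2 changes of -0.77, -0.83, -0.65 and -0.42. Odc1, the rate-limiting enzyme of polyamine synthesis and a classical Myc target, had 146, 124 and 116 CPM in the WT group against 183, 45.1 and 77.6 CPM in the G643W group (log2 change -0.33 ± 0.48, SE, edgeR adjusted p = 0.794). G643W library 1 was its highest library and G643W library 2 its lowest, and without library 2 the log2 change of Odc1 was 0.02.

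In 5 members, the abundant Ncl among them, most reads were on transcripts not annotated as coding. In Ncl 16.8 to 19.2% of reads were on protein-coding transcripts, and ENSMUST00000185676, annotated with a retained intron, took 79.9% over the 6 libraries. That transcript had 36000, 44102 and 50135 estimated reads across WT libraries 1, 2 and 3 against 42989, 21823 and 27059 across G643W libraries 1, 2 and 3, and the coding ENSMUST00000027438 had 7381, 9941 and 10593 estimated reads across WT libraries 1, 2 and 3 against 9994, 5257 and 6036 across G643W libraries 1, 2 and 3. Both were lowest in G643W library 2 and next lowest in G643W library 3. Polr1a, Nop56, Rrp1b and Gnl3 were the other members with under 50% of reads on coding transcripts in every library. By contrast 21 of the 48 had at least 90% there in every library, Myc, Npm1 and Fbl among them. Near-identical copies, sought at 90% identity over 50% of the main transcript, were found for 9 members, and adding their reads moved the log2 ratio of the genotype means most for Fbl, from -1.06 to -1.02. For Npm1 the ratio was -0.91 alone and -0.92 with its 3 copies.

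Other genes of the pathway, in 6 lists of non-members, followed the members to differing degrees. Together they held 204 tested genes, of which 0 passed edgeR in either direction, against 0.121% of all genes tested. DESeq2 called 1 of them, higher, against 0.794% of all genes tested. An unadjusted p under 0.05 was reached by 16 of the 204, against 9.66%. A negative log2 change was found for 176, against 50.8%, with a median of -0.36. Large subunit factors had 56 of 58 negative and a median of -0.44, with Nop53 lowest in p (log2 change -0.83 ± 0.24, SE, edgeR adjusted p = 0.454). Small subunit factors had 46 of 51 negative and a median of -0.35, with Imp3 lowest in p (log2 change -0.88 ± 0.32, SE, edgeR adjusted p = 0.494). RNA polymerase I genes outside the members had 9 of 10 negative and a median of -0.35, led by the initiation factor Rrn3 at -0.72. RNA polymerase III genes, which serve 5S rRNA and transfer RNA, had a median of -0.14, with the 5S factor Gtf3a at -0.78. Metabolic and growth genes known as Myc targets had 37 of 40 negative and a median of -0.52, with the mitochondrial co-chaperonin Hspe1 at 63.9, 115 and 74.7 CPM in the WT group against 55, 13 and 31 CPM in the G643W group (log2 change -1.36 ± 0.51, SE, edgeR adjusted p = 0.498). Without G643W library 2 the medians of these 5 lists were -0.22, -0.25, -0.11, -0.05 and -0.28.

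Myc network partners, which are cofactors and antagonists rather than targets, had no common direction, with 11 of 24 negative and a median of 0.02. Mxi1, a repressor that competes with Myc for Max, had the lowest p of the list and of all 204 genes, at 66.1, 82.6 and 72 CPM in the WT group against 124, 134 and 135 CPM in the G643W group. Every G643W library lay above every WT library, G643W library 1 included. It did not pass edgeR (log2 change 0.83 ± 0.18, SE, edgeR adjusted p = 0.363), and it was the single gene of the 204 that DESeq2 called (log2 change 0.85, DESeq2 adjusted p = 0.0315). The other Mxd genes were looked at after this value had been seen. Mxd1, an antagonist that is induced as granulocytes mature, had 40.2, 67.8 and 175 CPM in the WT group against 59.4, 296 and 249.7 CPM in the G643W group, high in WT library 3 and G643W libraries 2 and 3. Mxd3 had 10.1, 13.3 and 13.5 CPM in the WT group against 11.3, 42.9 and 20.2 CPM in the G643W group, and Mxd4 had 142, 119.9 and 94.4 CPM in the WT group against 88.8, 81.7 and 66.2 CPM in the G643W group. For Mxd3 the genotypes overlapped, and for Mxd4 all G643W libraries lay below all WT libraries (log2 change -0.59 ± 0.23, SE, edgeR adjusted p = 0.503).

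By summed TPM, neutrophil markers and members ran in nearly opposite orders over the 6 libraries. The 27 neutrophil markers, all above 0 TPM in every library, summed to 51824, 47097 and 105300.0 TPM across WT libraries 1, 2 and 3 against 42541, 268070.0 and 176190.0 across G643W libraries 1, 2 and 3, and the 49 members summed to 1925, 2475 and 2316 TPM across WT libraries 1, 2 and 3 against 2529, 819 and 1459.6 across G643W libraries 1, 2 and 3. G643W library 2 had the highest neutrophil sum and the lowest member sum, with G643W library 3 next in both. At the other end, G643W library 1 had the lowest neutrophil sum and the highest member sum, with WT library 2 next in both. The 1 pair out of this reversed order was WT libraries 1 and 3, of which library 3 had more of both. As mean log2 CPM relative to all libraries, which weights the markers equally, the neutrophil markers stood at -1.96, -1.29 and 0.85 across WT libraries 1, 2 and 3 against -1.80, 2.40 and 1.80 across G643W libraries 1, 2 and 3, lowest in WT library 1. On that scale the members stood at 0.17 in WT library 1, below the other WT libraries and G643W library 1. The reversed order thus did not hold among the WT libraries and G643W library 1, while G643W libraries 2 and 3 kept it. Of the 27 markers, 25 had a positive log2 change, and 4 had an unadjusted p under 0.05 by edgeR, against 9.66% of all genes tested. For these markers edgeR called 0, and DESeq2 called 3 higher, against 0.794% of all genes tested. With TPM rescaled over the genes outside the neutrophil list, the members summed to 2029.9, 2597 and 2589 TPM across WT libraries 1, 2 and 3 against 2642, 1119 and 1772 across G643W libraries 1, 2 and 3, in the same order of the G643W libraries. The mean of the neutrophil markers was tried as a covariate after seeing the data. In that fit the members' median log2 change was -0.40, against -0.04 for all genes tested. Negative were 46 of 48, against 53.2%, though not the same 46: Max turned to -0.35 and Wdr12 to 0.039. In that fit 0 members passed edgeR (lowest adjusted p = 0.774), against 0.0823% of all genes tested. Other parts of this relation were not tested.

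Several lists of markers of other cell types also differed between the libraries, though edgeR called 0 genes in any of them. Among all genes tested, 8.89% lay lower and 7.05% higher in G643W without overlap, and 9.66% had an unadjusted p under 0.05. DESeq2 called 1.27% of all genes tested lower and 0.794% higher. Stem and progenitor markers summed to 333, 363 and 347 TPM across WT libraries 1, 2 and 3 against 285, 131 and 166 across G643W libraries 1, 2 and 3, in the members' order apart from G643W library 1, which lay below the WT libraries. Of their 11 tested genes 7 were negative, 5 lay lower without overlap, the median log2 change was -0.82, 5 had an unadjusted p under 0.05 and DESeq2 called 1 lower. Monocyte markers summed to 4564, 3193 and 4905 TPM across WT libraries 1, 2 and 3 against 4189, 3034 and 4179 across G643W libraries 1, 2 and 3, and the genotypes overlapped in this sum. Gene by gene, 14 of the 15 monocyte markers were negative, 7 lay lower without overlap, the median log2 change was -1.18, 8 had an unadjusted p under 0.05 and DESeq2 called 2 lower. Their mean log2 CPM was lowest in G643W library 2, as for the members. Erythroid markers summed to 30.7, 23.7 and 35.3 TPM across WT libraries 1, 2 and 3 against 85.2, 35.5 and 82.7 across G643W libraries 1, 2 and 3. All 9 tested erythroid markers were positive, 5 lay higher without overlap, the median log2 change was 1.41, 2 had an unadjusted p under 0.05 and DESeq2 called 2 higher. The 9 promyelocyte granule genes, such as Mpo and Elane, summed to 1117, 3012 and 4909.7 TPM across WT libraries 1, 2 and 3 against 6975, 1085 and 3324 across G643W libraries 1, 2 and 3, highest in G643W library 1 and lowest in G643W library 2 and WT library 1. T and NK cell markers ranged from 15.7 to 168 TPM and B cell markers from 9.81 to 28.3 TPM, with medians of -0.01 and -0.24. The part of these markers in the members' values was not tested.

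Ribosomal protein genes, whose products the members assemble, and mitosis genes differed from the members in how the genotypes lay. The mean log2 CPM of the 48 members relative to all libraries was 0.17, 0.61 and 0.42 across WT libraries 1, 2 and 3 against 0.45, -1.28 and -0.37 across G643W libraries 1, 2 and 3. For the 79 cytosolic ribosomal protein genes it was 0.35, 0.80 and 0.19 across WT libraries 1, 2 and 3 against 0.10, -0.89 and -0.55 across G643W libraries 1, 2 and 3. On this scale G643W library 1 lay below every WT library for the ribosomal protein genes, and above WT libraries 1 and 3 for the members. By summed TPM the ribosomal protein genes stood at 119610 in G643W library 1, above 114890 in WT library 3. Without overlap and lower in G643W by CPM were 50 of 79 ribosomal protein genes and 5 of 48 members, against 8.89% of all genes tested. By TPM the 5 became 0, against 5.84% of all genes tested. The 50 were not recounted by TPM, so the lists can be set side by side by CPM alone. The 20 mitosis genes summed to 456, 618 and 528 TPM across WT libraries 1, 2 and 3 against 921, 1247 and 1028 across G643W libraries 1, 2 and 3, so G643W library 2 was highest for mitosis and lowest for ribosome biogenesis. S phase genes summed to 641, 879.8 and 1260.2 TPM across WT libraries 1, 2 and 3 against 1384, 873 and 1049 across G643W libraries 1, 2 and 3. These comparisons between lists are descriptions, since no test of the difference between lists was made.

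**Figure D5:**
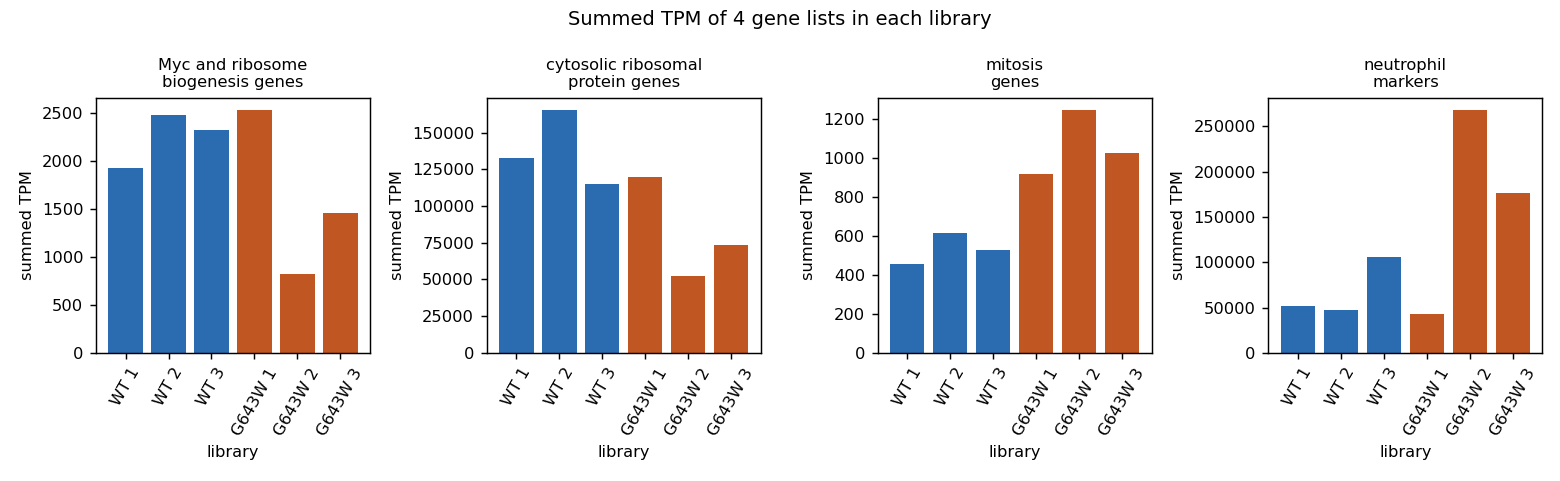
Summed TPM (y axes from 0) of the 49 members, 79 cytosolic ribosomal protein genes, 20 mitosis genes and 27 neutrophil markers in each library (x axis), WT in blue and G643W in orange. The member sum is 819 in G643W library 2 and 2529 in G643W library 1, while the mitosis sum is higher in all 3 G643W libraries than in any WT library.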

How the data were processed

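RNA was sequenced from 6 libraries of sorted blasts, 3 per genotype. Per the labels' protocols the kit was TruSeq V2. Per the submitters' processing notes bcl2fastq, Salmon 0.12.0, mm10 and GRCm38.p6 were named; the transcript index and strand setting were not given in these sources. The authors deposited Salmon tables with estimated counts and TPM per transcript, per the file headers. Of 136288 transcripts, 136176 matched GENCODE M21, and the 112 unmatched ones took up to 0.0365% of the reads per library. Estimated counts were summed per gene, rounded and filtered with edgeR's filterByExpr (minimum count 10), leaving 20654 genes. They were scaled with TMM and tested with edgeR 4.0.16 (quasi-likelihood, all 6 libraries, no covariate, Benjamini-Hochberg over all genes, threshold 0.05). DESeq2 1.42.0 and limma 3.58.1 were alternatives. An exact two-sided permutation test of 3 against 3 libraries cannot go below p = 0.1.

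TPM sums served for levels between genes. Copies were sought with BLAST 2.17.0. The scripts were tested on simulated data. Every member was named. Full values went to Myc, Mycn and Max, to any called member, to the 2 lowest p per role, and to Npm1, Ncl, Fbl, Nop56, Odc1 and Ubtf. Pathway lists gave called genes or else the lowest p. The values of Polr1a, Gnl3, Rrp9, Mxd1, Mxd3 and Mxd4 were added after they had been seen. The members and lists were chosen with earlier results of these data known.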

Additional observations from a re-analysis of the deposited data

How the results depend on the processing

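No member passed the threshold under any of the 16 alternatives, and their median was negative in each of them. The edgeR fit called 25 of all genes, 11 higher and 14 lower. DESeq2 called 427 genes (164 higher and 263 lower), 1 of them in the pathway lists. Length-scaled counts gave 14 genes (9 higher, 5 lower), limma on log2(TPM + 0.1) gave 43 (19 higher, 24 lower) and limma on log2(TPM + 1) gave 20 (13 higher, 7 lower). No filter gave 104 (37 higher, 67 lower), no scaling factor 16 (8 higher, 8 lower), upper quartile scaling 15 (9 higher, 6 lower), protein-coding genes alone 2 (1 higher, 1 lower), and the neutrophil covariate, added after the data had been seen, 17 (10 higher, 7 lower). The cause of these shifts was not tested. The 5 members without overlap became 0 with no scaling factor and by TPM, whose values are the same for both limma fits. They were 6 with DESeq2, 4 with length-scaled counts, and 5 with no filter or protein-coding genes alone. With a replicate block edgeR called 0 genes, 0 higher and 0 lower, with 1772 at an unadjusted p under 0.05. Deviations from the genotype mean had correlations of 0.112, -0.165 and 0.176 between same-numbered libraries. Between differently numbered libraries they ran from -0.284 to 0.228, so these values do not settle whether the numbers pair the libraries.

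Leaving out each library in turn, the genes called ranged from 0 to 16 (higher 0 to 13, lower 0 to 7), with 0 without WT library 2 (edgeR, 1277 at an unadjusted p under 0.05). The members without overlap ranged from 5 to 44 and their median from -1.10 to -0.28. The 44 were 43 lower and 1 higher without G643W library 1, against 20.3% and 23.2% of the genes tested in that fit. Where an arm kept 2 libraries, their spread was pooled with the other arm. Of 768 recomputed member changes, 11 changed sign, in 5 members. Odc1 was 0.069 with length-scaled counts. With the neutrophil covariate Max was -0.35 and Wdr12 0.039. Without G643W library 2, Max was -0.23, Polr1b 0.10, Wdr12 0.18, Rrp1b 0.07 and Odc1 0.019. Max was -0.02 without WT library 1, Wdr12 0.02 without WT library 2 and Rrp1b 0.20 without WT library 3. Over the fits that left a library out, Max ran from -0.23 to 0.43, Polr1b from -0.98 to 0.10, Wdr12 from -0.89 to 0.18, Rrp1b from -0.30 to 0.20 and Odc1 from -0.99 to 0.019. The number of libraries and the depth both limit the precision, and their shares were not compared. Among tested members the fewest reads were 228, for Grwd1 in G643W library 2.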

Other observations

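Mitosis genes had higher CPM in the G643W libraries, although edgeR called 0 of them. All 20 mitosis genes had a positive log2 change, where 50.8% of all genes tested had a negative one. By edgeR 18 of them had an unadjusted p under 0.05, against 9.66% of all genes tested. In 16, every G643W library lay above every WT library, against 7.05%, and DESeq2 called 5 higher, against 0.794%. Cenpe, a motor protein of the kinetochore, had 45, 58.3 and 48.9 CPM in the WT group against 99.7, 149 and 132 CPM in the G643W group (log2 change 1.32 ± 0.23, SE, edgeR adjusted p = 0.200). All 3 G643W libraries lay above the WT libraries for Cenpe, G643W library 1 included, whereas Myc was above the WT range in that library and below it in the other two. Rpl34, a protein of the large ribosomal subunit, had 659, 1001 and 615 CPM in the WT group against 311, 187 and 215 CPM in the G643W group (log2 change -1.67 ± 0.32, SE, edgeR adjusted p = 0.259). Its G643W libraries all lay below the WT libraries. Whether the lists differ in their response was not tested.

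Among the WT libraries, library 2 was the highest of all 6 libraries for 26 of the 48 members, against 22.5% of all genes tested.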
